A study of Arabidopsis thaliana with 18 samples.

Results

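The plastid genome of Arabidopsis thaliana encodes its own gene expression machinery beside proteins of photosynthesis. The genes described here are those of the plastid chromosome whose symbols do not start with psa, psb, pet, atp, ndh or rbcL, and that have a probe set listed with a single gene. They are 26 of the 69 plastid genes with such a probe set, and of 22746 probe sets tested on the array. By role they comprise 4 genes for RNA polymerase subunits (rpoA, rpoB, rpoC1, rpoC2), 8 for proteins of the small ribosomal subunit (rps2, rps3, rps4, rps14, rps15, rps16, rps18, rps19) and 7 for proteins of the large ribosomal subunit (rpl14, rpl16, rpl20, rpl22, rpl32, rpl33, rpl36). The other 7 are matK, clpP, accD, ycf3, ycf4, cemA and ccsA. The rule uses gene identity and no measured value.

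Affymetrix ATH1 arrays were hybridised with RNA from whole seedlings of 2 genotypes, the Columbia (Col) wild type and a bru1 mutant whose allele the labels leave out. BRU1 is a nuclear protein of genome maintenance, and the study asks about its role in the memory of heat stress. Seedlings of both genotypes grew on medium with 1% glucose, with 16 h of light at 23 °C and 8 h of dark at 21 °C. Per the labels' protocols, treatment started 6 h after dawn. Heated seedlings were 4 d old and received an acclimating treatment of 37 °C (1 h), 23 °C (1.5 h) and 44 °C (45 min). The 6 groups are the untreated control, 4 h after acclimation and 52 h after acclimation in Col and the same in bru1, with 3 biological replicates each. Per the labels' protocols the controls belong to the 4 h time point, so at 52 h age and treatment cannot be told apart. The BRU1 transcript was not analysed here.

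Plastid genes are transcribed by a plastid-encoded RNA polymerase, whose core is made of the rpo products, and by polymerases encoded in the nucleus. Many plastid genes lie in clusters that are transcribed together and then cut and spliced into shorter RNAs, so that the amount of each RNA depends on transcription, processing and decay. The ribosomal protein genes contribute to the plastid ribosome, which also needs many proteins imported from the cytosol. In seedlings this machinery makes the photosynthetic proteins of the young chloroplasts.

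Levels are log2 expression values from RMA, and changes are log2 differences between group means with the standard error (SE) from limma, 3 arrays a group. A change was called when its p-value, adjusted by the Benjamini-Hochberg method over all probe sets tested, was under 0.05. Array medians ran from 6.48 to 6.55, and replicate arrays correlated closely (mean r per array of 0.986 to 0.996). Levels up to 4.39, which is the highest of the arrays' lower quartiles, were not taken to be above background. Rubisco activase (RCA), the 1 of 18 green tissue markers with a one-gene probe set, had group means of 13.84 to 14.16. Of 7 root markers 2 were measured, and both were lower at 4 h, PYK10 by 1.08 ± 0.13 in Col and 1.45 ± 0.13 in bru1 and the root hair expansin gene EXPA7 by 1.18 ± 0.24 and 0.82 ± 0.24 (adjusted p = 5.3e-06, 1.5e-07, 7.2e-04 and 0.011). None of the 5 dry seed markers had a one-gene probe set. In whole seedlings, fewer cells of a type, fewer plastids per cell and less of an RNA per plastid cannot be told apart.

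At 4 h after acclimation most of these plastid transcripts were lower in both genotypes. In Col, 19 of the 26 genes fell and 2 rose, against 18.2% of all probe sets called lower and 18.2% called higher. In bru1, 21 fell and 0 rose, against 19.5% called lower and 19.9% called higher. The 21 were also all the genes under an unadjusted p of 0.05 in limma, against 10482 of all 22746 probe sets. The median change over the 26 genes was -0.95 in Col and -1.26 in bru1, while the median over all probe sets was 0.00 and 0.01. A fall of at least 2-fold was called for 13 genes in Col and for 15 in bru1, and 12 genes met this in both, while 5.10% and 5.59% of all probe sets did so. All 19 genes that fell in Col also fell in bru1, where they made up 90.5% of the genes that fell. Across the 26 genes the changes of Col and bru1 correlated with r = 0.89, a description over genes that share the same arrays.

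**Figure D1:**
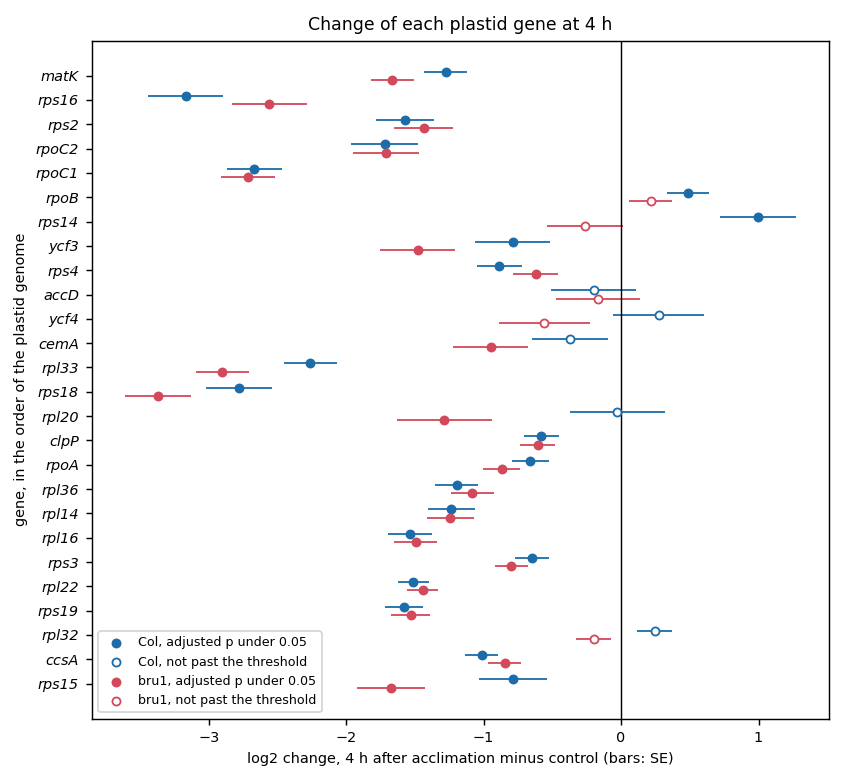
Log2 change of each of the 26 plastid genes 4 h after acclimation against the untreated control, in Col (blue) and bru1 (red), with bars of 1 SE and 3 arrays a group. Filled points passed an adjusted p of 0.05. The largest falls are those of rps16, rps18, rpoC1 and rpl33 in both genotypes, and rpoB and rps14 lie to the right of 0 in Col.

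At 4 h the 25S ribosomal RNA control moved the other way, by 1.32 in Col and 2.12 in bru1 (exact permutation p = 0.1 for each, the smallest that 3 against 3 arrays allow). So did 10 of 11 mitochondrial genes in each genotype, with medians over the 11 of 4.86 and 5.02. Where a mitochondrial gene had several probe sets, the brightest over all 18 arrays was used, which can favour those high at 4 h. Of all probe sets, 18.2% were called higher in Col and 19.9% in bru1. The 3' minus 5' difference of the actin control probe sets, a sign of RNA degradation, was 0.55 higher in Col and 0.48 higher in bru1 (exact permutation p = 0.1 for each), and that of GAPDH was 0.21 higher in Col (exact permutation p = 0.1) and changed by -0.08 in bru1 (exact permutation p = 0.3). The part of labelling, RNA quality and tissue make-up in the falls of plastid transcripts was not tested.

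Among the genes of the plastid-encoded RNA polymerase, rpoC1 and rpoC2, which encode the subunits called β' and β'', fell most. The rpoC1 level was 9.88, 9.92 and 9.79 on the Col control arrays and 7.13, 7.06 and 7.39 at 4 h, and in bru1 it went from 10.13, 9.96 and 9.55 to 7.13, 7.57 and 6.78. All arrays at 4 h lay below all control arrays, and the change was -2.67 ± 0.20 in Col (6.36-fold lower, adjusted p = 1.4e-08) and -2.72 ± 0.20 in bru1 (adjusted p = 1.0e-08). For rpoC2 the Col controls were at 9.30, 8.79 and 8.61 and the Col arrays at 4 h at 7.43, 7.04 and 7.06. The groups did not overlap there or in bru1, and the changes were -1.72 ± 0.24 and -1.71 ± 0.24 (adjusted p = 2.5e-05 and 2.3e-05). The gene of the α subunit, rpoA, fell by less, from 12.60, 12.57 and 12.26 to 11.77, 11.93 and 11.75 in Col, which is -0.66 ± 0.14 (adjusted p = 8.4e-04), and by 0.87 ± 0.14 in bru1 (adjusted p = 5.9e-05). The probe set of rpoB, the gene of the β subunit, lay at or near background throughout, with group means of 3.73 to 4.40. Its call in Col at 4 h (0.49 ± 0.16, adjusted p = 0.019) therefore rests on a level not above background in the controls, and it was lost without Col control replicate 3 or Col 4 h replicate 3 (adjusted p = 0.083 and 0.12).

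Of the 8 genes for small subunit proteins, 7 fell and 1 rose in Col at 4 h, and 7 fell in bru1. The largest fall in Col was that of rps16. Its Col controls stood at 8.32, 8.26 and 7.42 and its arrays at 4 h at 5.02, 4.90 and 4.58, with no overlap (-3.17 ± 0.27, 8.98-fold lower, adjusted p = 8.3e-08). In bru1 rps16 went from 7.66, 7.77 and 8.20 to 5.12, 4.79 and 6.04 (-2.56 ± 0.27, adjusted p = 9.9e-07). Most of these rps16 levels at 4 h lay near the background level of 4.39, so the sizes of its falls are less certain. The largest fall in bru1 was that of rps18, from 10.85, 11.27 and 11.07 to 7.38, 7.86 and 7.85 (-3.37 ± 0.24, adjusted p = 6.9e-09), and in Col it went from 11.01, 10.82 and 10.14 to 8.25, 8.12 and 7.25 (-2.78 ± 0.24, adjusted p = 8.0e-08). Both genes thus dropped on every treated array below every control array of the same genotype. Intermediate falls were those of rps19 (-1.58 in Col, -1.53 in bru1) and rps2 (-1.57 and -1.44), and smaller ones those of rps4 (-0.89 and -0.62) and rps3 (-0.65 and -0.80). The fall of rps15 was -0.78 ± 0.25 in Col (adjusted p = 0.019), where the arrays at 4 h (6.72, 6.11 and 6.40) overlapped the controls (7.48, 7.41 and 6.69), and -1.67 ± 0.25 in bru1 (adjusted p = 3.6e-05). The Col call of rps15 was lost when Col 4 h replicate 2, Col control replicate 1 or Col control replicate 2 was left out (adjusted p = 0.089, 0.091 and 0.080).

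Genes for large subunit proteins fell in 5 of 7 cases in Col and 6 of 7 in bru1. The rpl33 transcript led them, with Col controls at 11.62, 11.78 and 11.28 and Col arrays at 4 h at 9.81, 8.79 and 9.29 (-2.26 ± 0.19, adjusted p = 7.1e-08). In bru1 it went from 11.49, 11.69 and 11.62 to 8.47, 8.68 and 8.95 (-2.90 ± 0.19, adjusted p = 2.9e-09). A tight group followed. The change of rpl22 was -1.51 ± 0.11 in Col and -1.44 ± 0.11 in bru1, that of rpl16 -1.54 ± 0.16 and -1.50 ± 0.16, that of rpl14 -1.24 ± 0.17 in both, and that of rpl36 -1.20 ± 0.16 and -1.08 ± 0.16, each without overlap between treated and control arrays of a genotype. The exception in both genotypes was rpl32, at 10.97, 10.95 and 10.71 in the Col controls and 11.37, 11.16 and 10.83 at 4 h, which overlap (0.25 ± 0.13, adjusted p = 0.15). Its change in bru1 was -0.20 ± 0.13 (adjusted p = 0.24). The rpl20 transcript fell in bru1 (-1.29 ± 0.34, adjusted p = 0.0060) and had a change of -0.03 ± 0.34 in Col (adjusted p = 0.97).

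The transcript of matK, which encodes a maturase that helps to splice plastid group II introns, fell without overlap. Its Col levels were 11.81, 11.93 and 11.83 in the controls and 10.90, 10.30 and 10.54 at 4 h (-1.28 ± 0.16, adjusted p = 5.3e-06), and its bru1 levels 12.23, 12.21 and 12.25, then 10.67, 10.84 and 10.19 (-1.67 ± 0.16, adjusted p = 2.2e-07). The clpP gene, for a proteolytic subunit of the plastid Clp protease, fell by 0.58 ± 0.13 in Col and 0.61 ± 0.13 in bru1 (adjusted p = 0.0016 and 0.0010). By contrast accD, for a subunit of the plastid acetyl-CoA carboxylase that starts fatty acid synthesis, did not pass the test in either genotype. Its changes were -0.20 ± 0.31 (95% interval -0.85 to 0.45) and -0.17 ± 0.31 (-0.82 to 0.48), so a fall of the size seen for matK in Col lies outside both intervals.

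Of the remaining genes, ccsA, needed for attaching haem to plastid c-type cytochromes, fell from 11.54, 11.83 and 11.56 to 10.69, 10.78 and 10.42 in Col (-1.01 ± 0.12, adjusted p = 4.1e-06) and by 0.85 ± 0.12 in bru1 (adjusted p = 2.5e-05). The genes ycf3 and ycf4 encode assembly factors of photosystem I. The ycf3 transcript fell by 1.48 ± 0.27 in bru1 (adjusted p = 3.2e-04). In Col its change was -0.79 ± 0.27 (adjusted p = 0.031), a call that was lost without Col control replicate 3, Col 4 h replicate 1 or Col 4 h replicate 2 (adjusted p = 0.19, 0.084 and 0.11), or with a robust variance trend (adjusted p = 0.0502). The change of ycf4 was 0.27 ± 0.33 in Col and -0.56 ± 0.33 in bru1 (adjusted p = 0.58 and 0.20). The gene of the envelope membrane protein cemA fell in bru1 (-0.95 ± 0.28, adjusted p = 0.010) and had -0.37 ± 0.28 in Col (adjusted p = 0.33). The bru1 call was lost without bru1 control replicate 3 or bru1 4 h replicate 1 (adjusted p = 0.076 and 0.061).

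**Figure D2:**
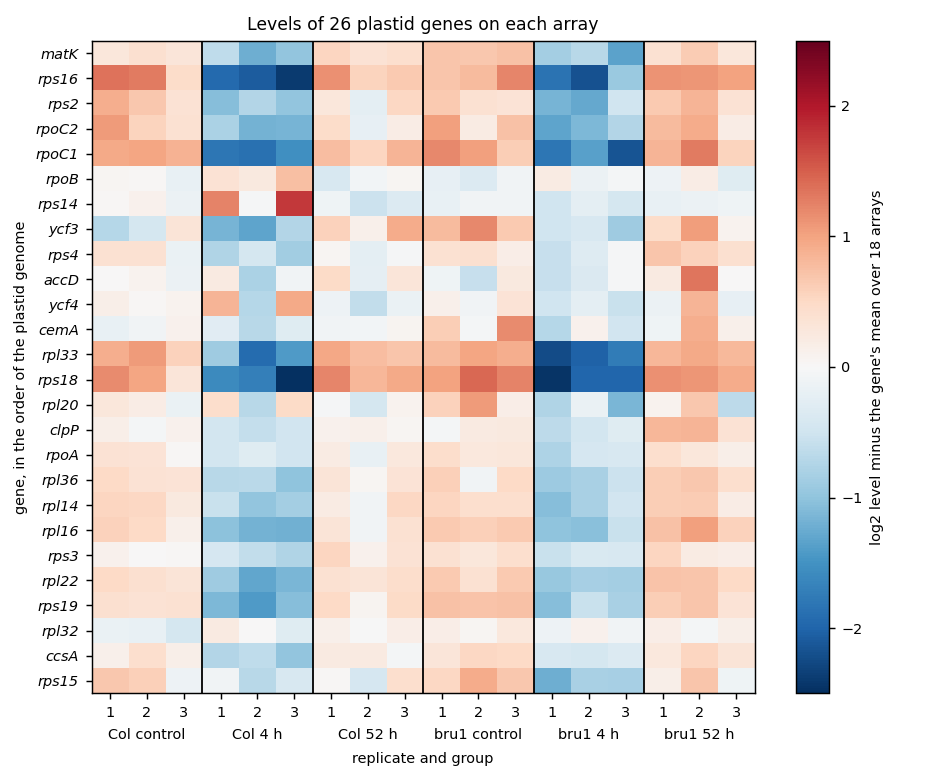
Level of each of the 26 genes (rows, in plastid genome order) on each of the 18 arrays (columns, by group and replicate), as the log2 level minus the mean of that gene over all arrays. Most rows are blue on the 6 arrays at 4 h and pale or red on the control and 52 h arrays, with rpoB, rps14, rpl32, accD and ycf4 as exceptions.

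Several of these genes lie next to each other in the plastid genome. In land plants a long cluster from the ribosomal protein genes to rpoA is transcribed together, and 7 of the genes measured here lie in it next to each other or nearly so. In Col at 4 h their changes, in genome order from rps19, were -1.58 (rps19), -1.51 (rpl22), -0.65 (rps3), -1.54 (rpl16), -1.24 (rpl14), -1.20 (rpl36) and -0.66 (rpoA), and all 7 fell in both genotypes. The changes of rps3 and rpoA were smaller than those of their neighbours rpl22, rpl16 and rpl36. The cluster of rpoB, rpoC1 and rpoC2 gave falls of rpoC1 and rpoC2, while rpoB was not measurable above background. Next to each other lie psaJ, rpl33, rps18 and rpl20. The photosystem I gene psaJ changed by 0.06 ± 0.25 in Col (adjusted p = 0.88) and -0.99 ± 0.25 in bru1 (adjusted p = 0.0041), whereas rpl33 and rps18 fell by more than 2 on the log2 scale in both. On the far side rpl20 changed, as given above, by -0.03 in Col and -1.29 in bru1. Only gene order was used here and not the strand, so whether psaJ, rpl33, rps18 and rpl20 are transcribed together was not tested.

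One array set some of the values in Col. On Col 4 h replicate 2, rps14 stood at 4.61 against 5.88 and 6.41 on the other arrays of its group, ycf4 at 6.34 against 7.91 and 8.00, rpl20 at 6.79 against 7.93 and 7.96, and accD at 6.72 against 7.73 and 7.41. The median of the 26 genes was 8.87 on that array, against 9.59 and 9.34. The Col controls of rps14 were at 4.68, 4.74 and 4.50, so replicate 2 lay among them and the other arrays above them. The rise of rps14 in Col was 1.00 ± 0.28 with all arrays (adjusted p = 0.0085) and 1.51 without replicate 2 (adjusted p = 1.1e-06), and it was not called without Col 4 h replicate 3 (0.61, adjusted p = 0.060). Without replicate 2, ycf4 was also higher in Col (0.81, adjusted p = 0.015), and rpl20 had 0.36 and accD 0.09 (adjusted p = 0.47 and 0.88). The count in Col was then 17 lower and 3 higher, with a median of -1.05. The array had the highest 25S ribosomal RNA value of its group, 13.19 against 12.87 and 12.40, and the highest actin 3' minus 5' difference, 3.42 against 3.27 and 3.13, while its GAPDH difference, 0.60, lay between 0.72 and 0.53.

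**Figure D3:**
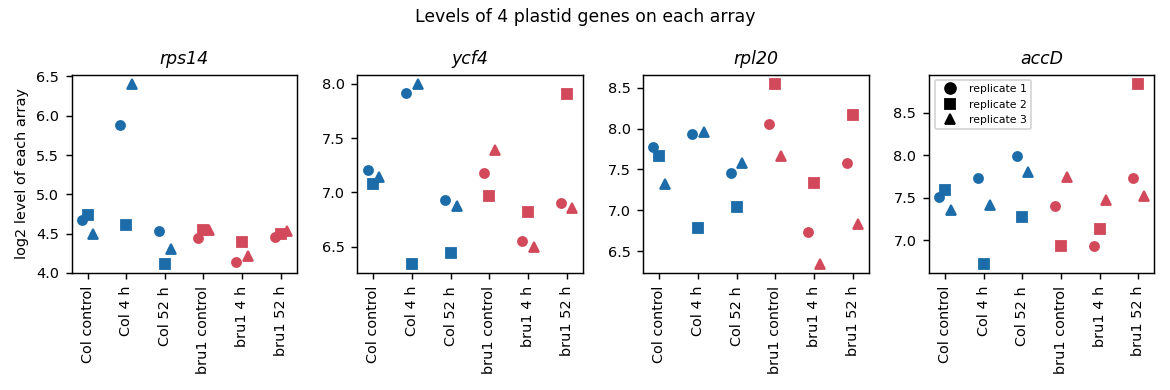
Log2 level of rps14, ycf4, rpl20 and accD on each array, with blue for Col, red for bru1 and a marker shape for the replicate number. In the Col 4 h group the square (replicate 2) lies below the other arrays in all 4 panels, at 4.61 for rps14 and 6.34 for ycf4.

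The interaction, which subtracts the Col change from the bru1 change, tests whether the genotypes responded differently. At 4 h limma called 0 of the 26 genes in either direction, against 0.176% of all probe sets called higher and 0.167% called lower. Under an unadjusted p of 0.05 lay 5 of the 26 genes, against 2966 of all 22746 probe sets. Of the 5, 2 encode small subunit proteins and 3 encode large subunit proteins, so ycf4 is not among them. The median interaction was -0.10. For rpoC1 it was -0.05 (95% interval -0.64 to 0.54) and for rpl22 0.07 (-0.27 to 0.40), so for these genes differences of 2-fold lie outside the interval. Other estimates were larger, with wider errors, and the lack of a call does not show that the genotypes responded alike. The interaction of rps14 was -1.26 ± 0.39 (adjusted p = 0.17), that of rpl20 -1.26 ± 0.48 (adjusted p = 0.28) and that of ycf4 -0.83 ± 0.47 (adjusted p = 0.47). Without Col 4 h replicate 2, rps14 (-1.77, adjusted p = 4.5e-04) and ycf4 (-1.37, adjusted p = 0.045) passed and rpl20 did not (-1.64, adjusted p = 0.079). The rps14 mean in bru1 at 4 h, 4.25, was not above background, so the size of its interaction depends on a level under the floor. At 52 h the interaction was called for 0 genes, against 0.0176% called higher and 0.101% called lower, and its median was 0.13. At an unadjusted p of 0.05 there were 4 genes, against 2079 of all 22746 probe sets.

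By 52 h most of the transcripts had risen again from their level at 4 h. In Col 18 genes were higher at 52 h than at 4 h and 2 lower, against 14.9% and 16.9% of all probe sets, with a median of 0.98. In bru1 20 were higher and 0 lower, against 18.3% and 20.1%, with a median of 1.17. The genes under an unadjusted p of 0.05 in bru1 numbered 22, against 10335 of all 22746 probe sets. The rps18 transcript rose by 2.96 ± 0.24 in Col, to 11.06, 10.66 and 10.79, and by 3.20 ± 0.24 in bru1, to 10.98, 10.93 and 10.76 (adjusted p = 4.9e-08 and 1.5e-08). Its levels at 52 h overlapped the controls in both genotypes. The rpoC1 transcript came back to 9.70, 9.46 and 9.78 in Col and 9.78, 10.23 and 9.48 in bru1, a rise of 2.45 ± 0.20 and 2.67 ± 0.20 (adjusted p = 5.1e-08 and 1.4e-08). The rises of rps16 (2.92 and 2.73), rpl33 (2.23 and 2.86) and matK (1.38 and 1.40) likewise left no overlap with the arrays at 4 h. The genes that were lower at 52 h than at 4 h in Col were rps14 (-1.32 ± 0.28, adjusted p = 0.0012) and rpoB (-0.60 ± 0.16, adjusted p = 0.0066). At 52 h in Col neither was above background, with means of 4.31 for rps14 and 3.81 for rpoB, so these differences depend on levels under the floor.

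**Figure D4:**
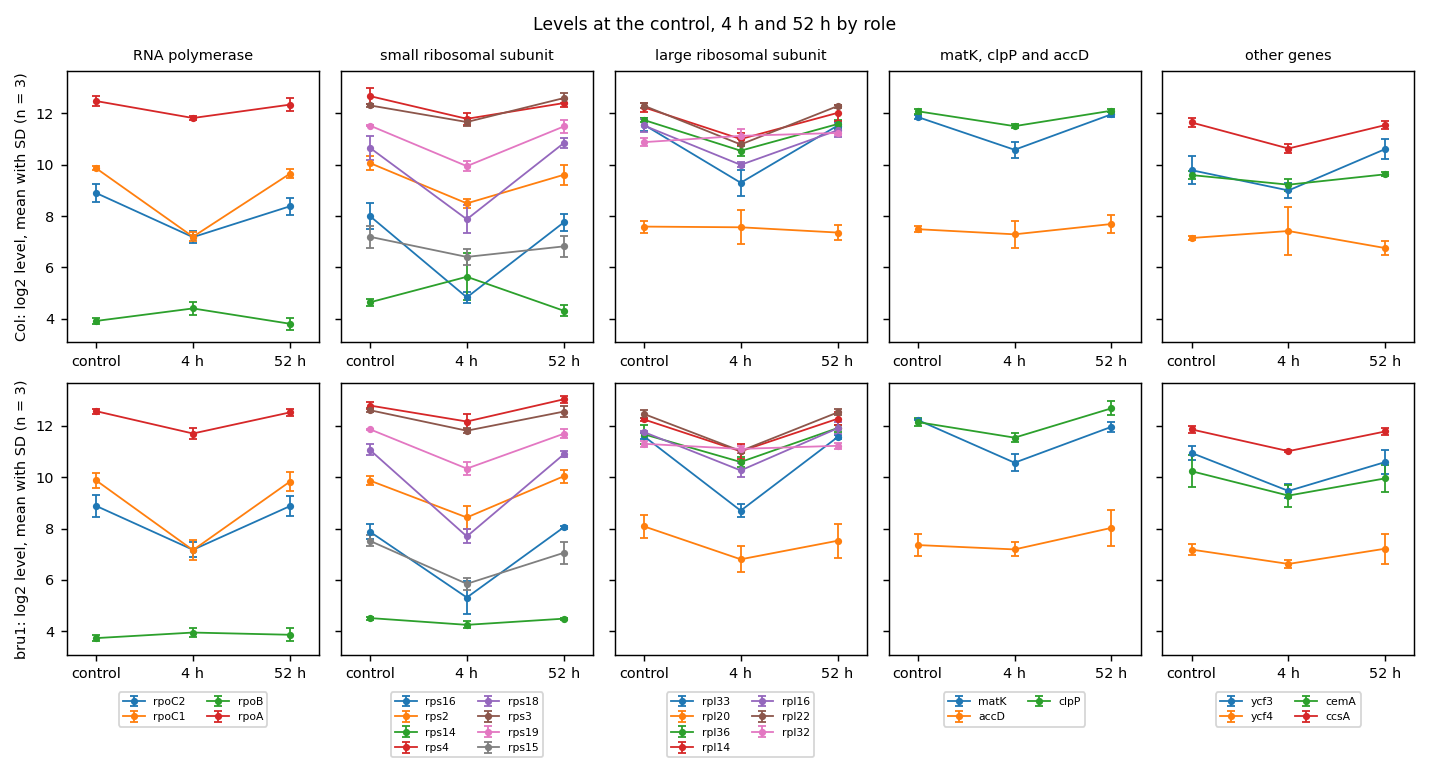
Group mean of the log2 level with SD (n = 3 arrays) at the control, 4 h and 52 h, for Col (upper row) and bru1 (lower row), with a panel for each role and a line for each gene. Lines of most genes dip at 4 h and return by 52 h, for example rps18 in Col with means of 10.66, 7.87 and 10.84.

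Against the untreated controls, few differences were left at 52 h. In Col limma called 0 of the 26 genes higher and 0 lower, against 6.93% and 7.84% of all probe sets. At an unadjusted p of 0.05 there were 5, against 6260 of all 22746 probe sets. The median change was -0.12, and the changes ran from -0.52 for rpoC2 (SE 0.24, adjusted p = 0.17) to 0.82 for ycf3 (SE 0.27, adjusted p = 0.052). In bru1 2 genes lay under an unadjusted p of 0.05, against 4396 of all 22746 probe sets, and the median change was -0.03. By the adjusted p 1 gene was higher and 0 lower in bru1, against 3.05% and 4.19%. The gene was clpP, at 11.96, 12.23 and 12.25 in the bru1 controls and 12.83, 12.85 and 12.37 at 52 h, without overlap (0.54 ± 0.13, adjusted p = 0.015). The clpP call was lost without bru1 control replicate 1, bru1 52 h replicate 1 or bru1 52 h replicate 2 (adjusted p = 0.081, 0.094 and 0.083). It was also lost with only the groups compared in the fit (adjusted p = 0.070). The accD change in bru1 at 52 h was 0.67 ± 0.31 (adjusted p = 0.24), and its highest array, bru1 52 h replicate 2 at 8.84, stood apart from 7.73 and 7.52. The 25S ribosomal RNA control was still 0.77 higher in Col and 1.05 higher in bru1 at 52 h (exact permutation p = 0.1 for each).

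Before heat, bru1 and Col differed little in these transcripts. In bru1 2 genes were higher and 0 lower than in Col, against 5.24% and 5.10% of all probe sets, with a median of 0.11. At an unadjusted p of 0.05 there were 6, against 5491 of all 22746 probe sets. The ycf3 level was 9.35, 9.62 and 10.39 in Col and 10.86, 11.26 and 10.73 in bru1, which do not overlap (1.16 ± 0.27, adjusted p = 0.011). The rpl32 level was 10.97, 10.95 and 10.71 against 11.30, 11.19 and 11.41 (0.43 ± 0.13, adjusted p = 0.040). Without Col control replicate 1 the adjusted p was 0.068 for ycf3 and 0.064 for rpl32, so neither was called. The ycf3 call was also lost without Col control replicate 2 or bru1 control replicate 2 (adjusted p = 0.052 and 0.053), and the rpl32 call without Col control replicates 2 or 3, bru1 control replicates 1 or 3 or Col 52 h replicate 1 (adjusted p = 0.051 to 0.16). The labels give no hybridisation run, so run and genotype cannot be told apart in this comparison.

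The photosynthesis genes of the same genome, 43 with a one-gene probe set, are set beside them here. In Col at 4 h, 10 of these fell and 8 rose, with a median of 0.00. Of the 26 genes described here, 19 fell and 2 rose there, with a median of -0.95. Of all probe sets, 18.2% fell and 18.2% rose in Col, as given above, so the counts of the 43 are near the share of the whole array. On Col 4 h replicate 2 the median level of the 43 genes was 9.23, against 10.12 and 9.84 on the other arrays of its group. In bru1 22 of the 43 lay under an unadjusted p of 0.05, against 10482 of all 22746 probe sets. Of the 43, 18 fell and 0 rose in limma, against 19.5% and 19.9% of all probe sets. Their median was -0.50, against -1.26 for the 26 genes. The difference between these sets of genes was not tested. The rps14 gene follows the photosystem I genes psaA and psaB, with which it is cotranscribed in land plants. In Col at 4 h psaA was 2.40 ± 0.42 higher (adjusted p = 2.2e-04), with levels from 7.39 to 9.86, while psaB was 0.37 ± 0.14 lower (adjusted p = 0.048) and rps14, as given above, was higher. In bru1 none of the 3 passed the test (0.46 for psaA, -0.17 for psaB and -0.26 for rps14, adjusted p = 0.44, 0.38 and 0.50).

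**Figure D5:**
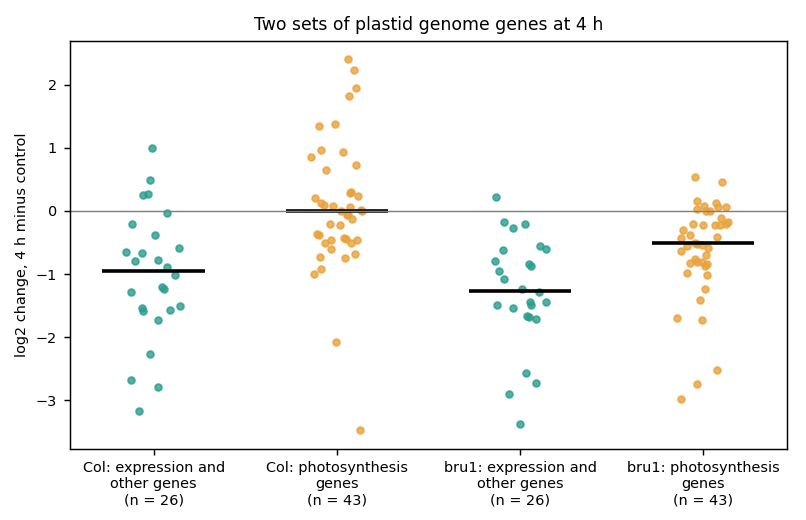
Log2 change at 4 h after acclimation against the control for the 26 plastid genes described here (green) and 43 plastid photosynthesis genes (orange) in each genotype, with a point for each gene and a bar at the median. The medians are -0.95 and 0.00 in Col and -1.26 and -0.50 in bru1.

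Nuclear genes whose products work with these plastid genes had medians closer to 0 at 4 h, in the small part of each list that was measured. Of all probe sets, 18.2% were called lower and 18.2% higher in Col at 4 h, and 19.5% and 19.9% in bru1. Of 40 listed nuclear genes for plastid ribosomal proteins 10 were measured, of which 1 rose and 1 fell in Col at 4 h and 1 rose and 2 fell in bru1, with medians of -0.08 and -0.23. PSRP1 rose in both genotypes (0.95 ± 0.14 and 0.65 ± 0.14, adjusted p = 3.9e-05 and 0.0012) and was still higher in Col at 52 h (0.62, adjusted p = 0.0058). PRPS10 fell in both (-0.25 ± 0.09 and -0.36 ± 0.09, adjusted p = 0.033 and 0.0028). Of 15 nuclear genes for the Clp protease 6 were measured, of which 1 fell in Col and 3 in bru1 (medians -0.12 and -0.19). CLPT1 fell in both genotypes (-0.25 ± 0.09 and -0.23 ± 0.09, adjusted p = 0.032 and 0.043). CLPS1 and CLPF fell in bru1 (-0.76 ± 0.15 and -0.30 ± 0.11, adjusted p = 6.0e-04 and 0.031). CLPP4, a proteolytic subunit, was not called at 4 h in either genotype. Of 31 genes for plastid RNA processing 7 were measured, of which 4 fell in Col and 3 in bru1 (medians -0.39 and -0.25). The largest fall among them in Col was that of SOT1 (-0.69 ± 0.12, and -0.59 ± 0.12 in bru1, adjusted p = 1.6e-04 and 5.8e-04). SOT1 was still lower in Col at 52 h (-0.46, adjusted p = 0.012), and it was lower in untreated bru1 than in untreated Col (-0.67, adjusted p = 0.0012). So were CAF1, PRPS10 and CLPT1 (-0.54, -0.46 and -0.44, adjusted p = 0.0069, 0.0024 and 0.0030), while PRPL19A was higher (0.42, adjusted p = 0.043). Of all probe sets, 5.10% were called lower and 5.24% higher in untreated bru1. CFM3A, a gene of the CRM family of intron splicing factors, fell by 0.50 ± 0.10 and 0.62 ± 0.10 (adjusted p = 8.3e-04 and 9.7e-05). CRP1 fell in Col (-0.45 ± 0.15, adjusted p = 0.028) and was not called in bru1. LPA66, which encodes a protein for editing of a plastid photosystem II transcript, fell by 0.39 ± 0.12 and 0.38 ± 0.12 (adjusted p = 0.019 for each). Of 8 nuclear genes for plastid RNA polymerases and their sigma factors 1 was measured, RPOT2 (AT5G15700). The RPOT2 transcript rose by 0.77 ± 0.14 in Col and 1.06 ± 0.14 in bru1 (adjusted p = 2.9e-04 and 1.1e-05). Whether the RPOT2 product acts in plastids alone was not tested. At 52 h the RPOT2 changes from the controls were -0.03 ± 0.14 and 0.21 ± 0.14 (adjusted p = 0.94 and 0.48). None of the 12 genes for proteins associated with the plastid-encoded polymerase or of the 4 nuclear genes for acetyl-CoA carboxylase had a one-gene probe set.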

How the data were processed

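Total RNA of 18 seedling samples was labelled with biotin and hybridised to ATH1 arrays, per the labels' protocols. The deposited values are log2 expression per probe set. They came from RMA, which the submitters' processing notes name without a version. RMA gives the arrays nearly equal distributions, so a change in total RNA is not seen. Values were used as deposited.

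A model with a mean per group was fitted to all 18 arrays in limma 3.58.1 under R 4.3.3 (lmFit, eBayes, 12 residual degrees of freedom), over 22746 probe sets after 64 AFFX controls were left out. It was tested on simulated data. The precision is limited by 3 arrays a group. Genes were matched by gene ID to a RefSeq table on TAIR10.1, used for names and gene order only. Mitochondrial genes were matched by symbol, with the brightest probe set of each by its mean over all 18 arrays, heated ones included.

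Members and lists were chosen with earlier results of these data known, and the nuclear lists from general knowledge of the loci. The text names members by role, with the largest rises and falls, all rpo genes, matK, clpP and accD, members past the threshold between untreated genotypes, and members lying on the array that stood apart, which were chosen after their values were seen.

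Replicate numbers were taken to pair samples where every same-numbered pair's deviations correlated over 0.1. This held between bru1 control and bru1 52 h (0.17 to 0.22 over probe sets) and in no other comparison (0.036 to 0.16 between Col control and Col 52 h, lower elsewhere). In that comparison clpP was also called with the replicate number as a block (adjusted p = 0.028, limma).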

Additional observations from a re-analysis of the deposited data

How the results depend on the processing

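Of 85 changes of single genes called over 9 comparisons, 76 were lost under none of the 24 alternatives that gave them a value, and 0 reversed. Leaving out dim probe sets gave no value for rpoB, called in Col at 4 h and from 4 h to 52 h. Centring the arrays gave 1 gene higher in Col at 52 h in place of 0, as did leaving out dim probe sets, which also gave 1 gene higher in Col at 4 h in place of 2 and 1 lower in Col from 4 h to 52 h in place of 2, since rpoB was left out. Fitting only the groups compared gave 0 genes higher in bru1 at 52 h in place of 1 and 4 higher in untreated bru1 than in Col in place of 2. With the replicate number as a block the last count was 1, and the accD rise from 4 h to 52 h in bru1 was also no longer called, but the numbers pair samples in neither comparison. That accD call was also lost with only the groups compared in the fit (adjusted p = 0.065). Leaving out bru1 4 h replicate 1, bru1 4 h replicate 2 or bru1 52 h replicate 2 lost it too (adjusted p = 0.14, 0.085 and 0.25). In the 52 h comparisons with the controls each of 6 arrays correlated best with its own number in both genotypes, a hint from the data. Repeated quantile normalisation and a robust variance trend moved no count by over 1.5 times, though with the latter the fall of ycf3 in Col at 4 h and the rise of accD in bru1 from 4 h to 52 h were no longer called (adjusted p = 0.0502 and 0.060).

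When each array was left out in turn, genes lower at 4 h numbered 17 to 19 in Col and 20 to 22 in bru1, and genes higher in Col 1 to 3. Genes higher in Col at 52 h numbered 0 to 2 (2 without Col 52 h replicate 2), in bru1 at 52 h 0 to 1, in untreated bru1 over Col 0 to 2 (0 without Col control replicate 1 or 2), and genes with a negative interaction at 4 h 0 to 2 (2 without Col 4 h replicate 2). The causes were not tested.

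Only changes that were not called reversed. Centring gave 0.0203 for rpoC2 in bru1 at 52 h. With each array left out in turn, the changes that crossed 0 ran as follows. In Col at 4 h accD ran from -0.424 to 0.0858, ycf4 from -0.0192 to 0.810 (called without Col 4 h replicate 2) and rpl20 from -0.228 to 0.359. In Col at 52 h rpoB ran from -0.200 to 0.0202 and clpP from -0.0376 to 0.0627. In bru1 at 4 h accD ran from -0.385 to 0.0257. In bru1 at 52 h rpoC2 ran from -0.235 to 0.214, rpoC1 from -0.249 to 0.124, rpoB from -0.00607 to 0.239 and rpoA from -0.117 to 0.0228.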

Other observations

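A further 6 probe sets list 2 plastid genes and were left out above. At 4 h, 3 of the 6 were lower and 0 higher in each genotype in limma. Of all probe sets, 18.2% were called lower in Col and 19.5% in bru1. In each genotype 3 of the 6 lay under an unadjusted p of 0.05, against 9972 and 10482 of all 22746 probe sets. Changes ran from -1.41 to 0.33 in Col and from -1.39 to 0.10 in bru1, with medians of -0.31 and -0.33. From 4 h to 52 h 2 of the 6 rose in Col and 4 in bru1, against 14.9% and 18.3% of all probe sets.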
